A study of Mus musculus with 126 samples.

Results

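The expression of 10 genes of fatty acid synthesis was followed in the mouse colon over the day. They are Srebf1, which encodes the transcription factor SREBP-1, and Mlxipl, which encodes the transcription factor ChREBP. The other members encode enzymes: Acly, Acss2, Acaca, Fasn, Me1, Elovl6, Scd1 and Scd2. The members are a list of gene names, with no threshold on a measured value. All 10 were found among the 24883 rows of the tables and all 10 were among the 11377 rows with enough signal to be tested.

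Colon RNA had been sequenced in 7 conditions. Each condition had 18 libraries, with triplicates taken 4 h apart at ZT0, 4, 8, 12, 16 and 20, where zeitgeber time (ZT) counts the hours from lights on. Wild-type mice and the Bmal1 and MR knock outs ate normal chow freely; MR is the mineralocorticoid receptor, encoded by Nr3c2, and Bmal1 is the clock transcription factor encoded by Arntl. Bmal1 was deleted in the gut and the knock outs were 8 to 12 weeks old, whereas the Cre driver, the strain of the genotype groups, the tissue of the MR deletion and the age of the wild type were not given in the sources used here. The other 4 conditions used male C57BL/6 mice, 8 weeks of age and with no engineered allele in the labels, on a schedule of 12 h light and 12 h dark. Their food, low or high in salt, was given either in the night or in the day. The clock hours of the meals were not given, so the start of the dark phase (ZT12) stands for the start of night feeding and lights on (ZT0) for that of day feeding. Whether each library came from its own animal was not stated for every group, and p-values then measure only the spread between these samples.

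Fatty acid synthesis turns surplus carbohydrate into fat. Citrate leaves the mitochondrion and is cleaved by ATP citrate lyase (Acly) to acetyl-CoA, which acetyl-CoA synthetase (Acss2) also makes from acetate, a product of the gut flora. Acetyl-CoA carboxylase (Acaca) makes malonyl-CoA, fatty acid synthase (Fasn) builds palmitate from it with NADPH that malic enzyme (Me1) helps to supply, Elovl6 lengthens palmitate, and the desaturases Scd1 and Scd2 add a double bond. SREBP-1 is induced and processed in response to insulin and feeding, and ChREBP responds to sugar. Both act on promoters of many of these enzymes, best known in the liver, where the pathway follows meals.

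The members lie on 6 chromosomes of build mm10 (GENCODE vM21). Of these, 4 are on chromosome 11: Srebf1 at chr11:60199089-60222581 (minus strand), Acaca at chr11:84129672-84401651 (plus), Acly at chr11:100476353-100528000 (minus) and Fasn at chr11:120805846-120824547 (minus). Scd2 (chr19:44293674-44306864, plus) and Scd1 (chr19:44394455-44407879, minus) are neighbouring paralogs, and reads from their like coding parts may have been shared between them, so their separate values are less certain. Acss2 lies at chr2:155517948-155585724 (plus), Elovl6 at chr3:129532355-129638495 (plus), Mlxipl at chr5:135089890-135138382 (plus) and Me1 at chr9:86581371-86695953 (minus).

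The sequence before the start site is shown for 4 genes, chosen because these stretches hold the short letters known from SREBP and ChREBP sites. RefSeq (GRCm38.p6) gave starts for 8 of the 10 members, 12 starts in all (not Scd1 and Scd2). Each run is the 250 bases before the start, 5′ to 3′ on the gene's strand. Capitals mark TCACCC (the core of sterol response elements), CCAAT (bound by NF-Y; ATTGG is the same match on the other strand) and CACGTG (an E-box), each searched on both strands. The Fasn run is chr11:120824548-120824797, Srebf1 is chr11:60210472-60210721, both on the minus strand, Acss2 is chr2:155517793-155518042 and Mlxipl is chr5:135089640-135089889, both on the plus strand.
Fasn: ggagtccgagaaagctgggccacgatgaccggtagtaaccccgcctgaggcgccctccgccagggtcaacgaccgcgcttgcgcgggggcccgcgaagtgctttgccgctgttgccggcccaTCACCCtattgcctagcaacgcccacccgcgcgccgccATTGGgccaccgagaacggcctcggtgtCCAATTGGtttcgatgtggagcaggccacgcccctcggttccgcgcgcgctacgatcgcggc
Srebf1: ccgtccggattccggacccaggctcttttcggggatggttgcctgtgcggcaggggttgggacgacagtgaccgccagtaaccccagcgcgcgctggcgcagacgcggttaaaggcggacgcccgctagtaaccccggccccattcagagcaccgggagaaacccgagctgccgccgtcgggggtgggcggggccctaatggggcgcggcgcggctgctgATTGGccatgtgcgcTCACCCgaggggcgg
Acss2: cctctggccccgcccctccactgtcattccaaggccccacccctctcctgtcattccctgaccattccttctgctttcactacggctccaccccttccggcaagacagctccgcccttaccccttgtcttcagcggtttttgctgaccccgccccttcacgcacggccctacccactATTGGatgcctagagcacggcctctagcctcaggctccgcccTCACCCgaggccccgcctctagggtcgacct
Mlxipl: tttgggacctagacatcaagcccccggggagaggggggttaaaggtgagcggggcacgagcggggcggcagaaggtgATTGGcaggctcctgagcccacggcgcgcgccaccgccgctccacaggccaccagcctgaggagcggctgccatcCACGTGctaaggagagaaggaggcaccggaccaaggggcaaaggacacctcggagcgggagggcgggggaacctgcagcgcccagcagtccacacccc
In Fasn, TCACCC began 128 bases before the start, and CCAAT matches began 90, 62 and 59 bases before it, the last of them overlapping on opposite strands. In Srebf1, the start shown is the one at position 60210471, and TCACCC lay 15 and CCAAT 30 bases before it; in Acss2 they lay 31 and 73 bases before the start. Both letters were thus found within 250 bases of 3 of the 12 member starts (25%), against 4.26% of 32851 promoters of that length; the other Srebf1 starts held no TCACCC. The Mlxipl run held CACGTG 98 bases before the start, a match found in 6.02% of promoters. TCACCC alone was in 13.8% and CCAAT alone in 33.8%. The longer sterol response element known from the LDL receptor (0.0731% of promoters) and the repeat bound by LXR (0.0152%) matched no member. The starts of Acaca, Acly and Elovl6 held none of the marked letters. The only Acaca start given, at position 84195438, lies inside the annotated gene (chr11:84129672-84401651). The sequence before the first base of Acaca was therefore not searched. A start of Me1, whose phase differed from that of Srebf1 (below), held TCACCC 102 bases before it. A match describes the letters only, and no link between matches and peak time was tested.

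Levels are given as FPKM (fragments per kilobase of transcript, scaled to the fragments mapped in the library), which corrects for gene length, after rescaling every library to a common median. Scd2 had the highest level of the members, with condition means from 98.8 to 161 FPKM. Acly (33.5 to 65.8), Acss2 (24.5 to 38.0), Fasn (14.8 to 23.2) and Srebf1 (11.7 to 18.1) followed. Elovl6 (8.16 to 14.3), Scd1 (4.55 to 10.1), Acaca (5.55 to 7.05), Mlxipl (5.42 to 8.17) and Me1 (2.46 to 18.9) were the lower members, and Me1 had the widest range over conditions.

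The libraries and the tissue were checked first. Arntl ran from 2.87 to 6.28 FPKM (median 4.02) in the Bmal1 knock out and from 2.25 to 19.2 (median 8.27) in wild type. Nr3c2 ran from 1.66 to 5.33 in the MR knock out and from 7.05 to 23.2 in wild type. Its mean was highest in wild type (15.1) and lowest in the MR knock out (3.05). It was 6.36 in the Bmal1 knock out and 6.96 to 8.78 in the 4 feeding groups. Whole-gene FPKM does not show whether the deleted part is transcribed. Colon epithelium markers (11 of 11 found) summed to between 7771 and 19505 FPKM in every library. Adipocytes, the other cells known for these enzymes, were checked with 13 markers whose sum was 17.7 to 92.9 FPKM. Of these the defining genes Adipoq, Lep, Plin1 and Adrb3 were at or near 0 (Adipoq condition means 0.0039 to 0.030), and the sum came mostly from Pck1, Cidec and Lipe. Markers of smooth muscle (0.635 to 4.69), fibroblasts (0.026 to 12.7), macrophages (1.24 to 12.8) and T cells (0.83 to 20.5) were low. The 7 markers of squamous and sebaceous cells of the anal margin summed to 0.60 to 7.78 FPKM, with a median of 4.96 in the Bmal1 knock out against 1.40 in wild type; in high salt, night fed mice the mean sum was 5.43 at ZT8 and 5.89 at ZT12 and at most 3.07 at the other times. Their part in the results below was not tested. In bulk tissue, fewer cells of a type and less RNA per cell cannot be told apart. The rescaling factor was under 0.6 in 14 libraries, 9 in the Bmal1 knock out and 5 in the high salt, night fed group (all 3 at ZT8 and 2 at ZT12), and values without them are given beside the results they touch; that fit replaces time means by cosine and sine terms, since 2 times of the Bmal1 knock out then have no library, and counts from the same terms with all libraries are in the closing section.

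On low salt, the time of feeding reversed the daily course of Srebf1. At ZT4 the night fed libraries had 11.8, 11.5 and 12.2 FPKM and the day fed libraries 19.6, 20.6 and 25.1. At ZT20 the night fed libraries had 24.1, 21.4 and 25.4 and the day fed libraries 11.8, 13.3 and 10.3. Night fed mice were the lower group at ZT4, ZT8 and ZT12 and the higher group at ZT16, ZT20 and ZT0, and the libraries of the 2 groups did not overlap at any of the 6 times. The ratio of means was 1.84 (day over night) at ZT4 and 2.01 (night over day) at ZT20.

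Fasn and Scd2 crossed over in the same way. Fasn had 17.9, 12.6 and 11 FPKM at ZT4 in night fed and 25.9, 30.2 and 30.9 in day fed mice, and 24.7, 30.6 and 27.2 against 12.8, 16.0 and 13.7 at ZT20. Scd2 had 101, 80.4 and 73.9 FPKM at ZT4 in night fed and 222, 237 and 243 in day fed mice. The order was turned round at ZT20, with 169, 212 and 217 in night fed and 68.6, 88.0 and 67.6 in day fed mice, and in both genes the groups did not overlap at either time. The ratio for Scd2 was 2.75 (day over night) at ZT4 and 2.67 (night over day) at ZT20. A single night fed library, ZT0 replicate 2, stood apart from the others of its time: its Scd2 level was 87.5 against 232 and 227, and its Mlxipl level 12.1 against 5.78 and 5.83.

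**Figure D1:**
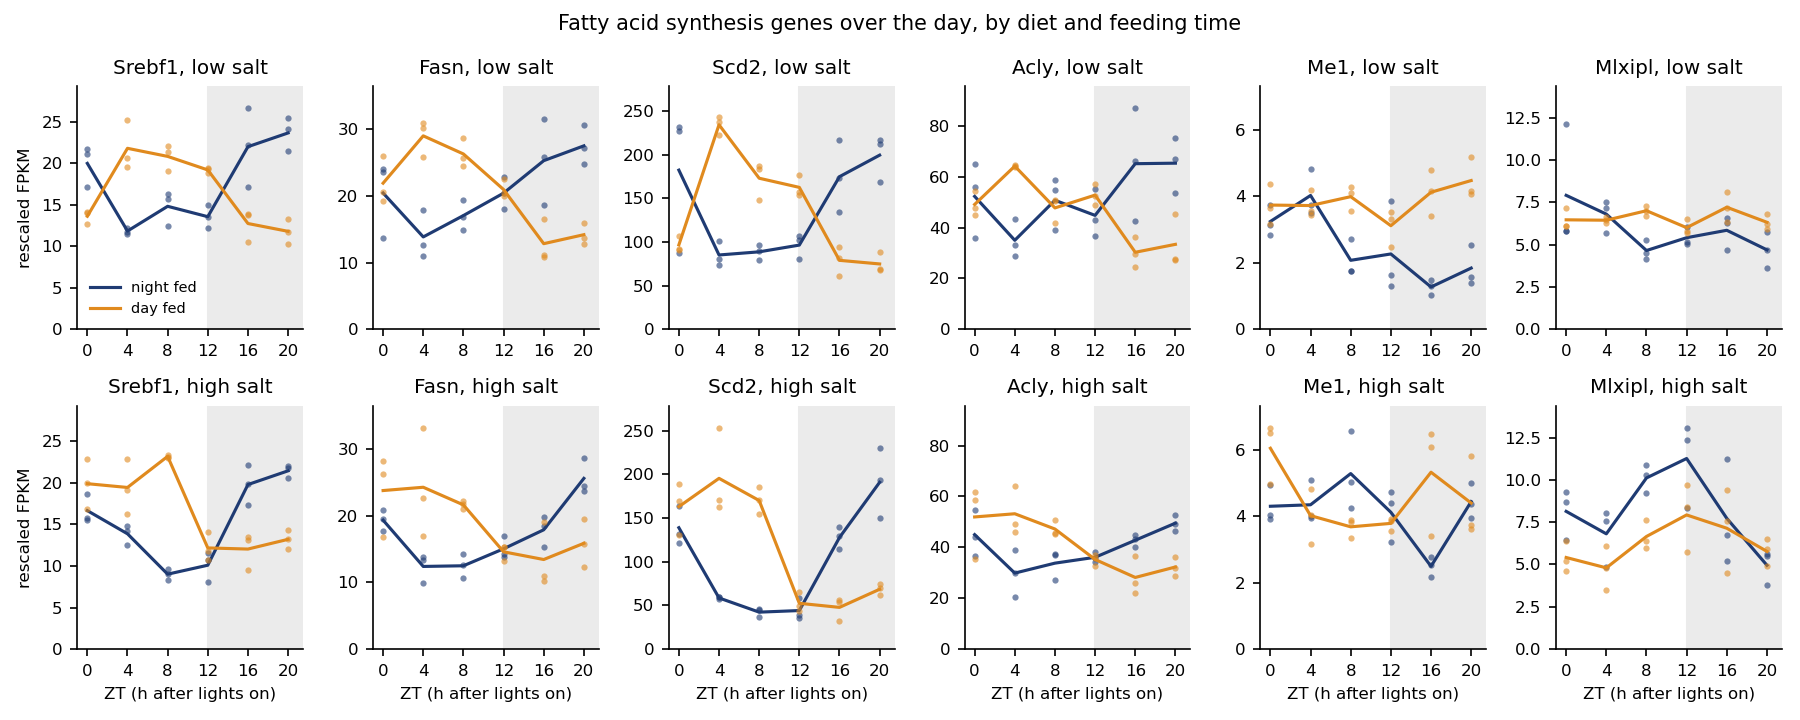
Levels of 6 members (rescaled FPKM) against zeitgeber time (h) on low salt (top row) and high salt (bottom row); points are libraries, lines join means of 3, blue is night fed, orange is day fed and the grey band is the dark phase. On low salt, Srebf1 of night fed mice is about 11.8 FPKM at ZT4 and 23.6 at ZT20 (means of 3), and the orange line runs the opposite way; Me1 and Mlxipl do not share this shape.

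A 24 h cosine was fitted to the 6 time means of the log2 level in each condition; the amplitude is the log2 distance from mean to peak, ± is the standard error, and a rhythm was called at an adjusted p under 0.05 over all tested genes (limma). In low salt, night fed mice 7 of the 10 members were rhythmic, where 22.6% of all tested genes were, and in day fed mice 8 of 10, where 42.2% were. Srebf1 had an amplitude of 0.46 ± 0.06 peaking at ZT19.3 ± 0.5 in night fed mice, and 0.48 peaking at ZT7.4 in day fed mice. Fasn had 0.44 with a peak at ZT17.7 and 0.59 with a peak at ZT5.6, and Scd2 had 0.69 with a peak at ZT19.6 and 0.83 with a peak at ZT6.9. Setting Me1 and Mlxipl aside, the called members peaked between ZT17.7 and ZT20.8 in night fed mice (6 genes) and between ZT3.3 and ZT8.2 in day fed mice (8 genes). The Acly rhythm in night fed mice (amplitude 0.35) was not called without ZT8 replicate 3 or ZT16 replicate 1 (adjusted p = 0.0541 and 0.067). A property of the libraries tied to transcript length also varied with the time of day, and is described below with the knock out levels.

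The 2 feeding times were then compared gene by gene. The size of a rhythm difference is the amplitude of the curve of day minus night fed, on the log2 scale. It was called for 9 of 10 members on low salt (38.6% of all genes), with a member median of 0.72 against 0.27 over all genes tested. The largest were the desaturases Scd2 (1.51 ± 0.13, adjusted p = 4.2e-12) and Scd1 (1.32), followed by Fasn (1.03 ± 0.12, adjusted p = 4.2e-08) and Srebf1 (0.94 ± 0.08, adjusted p = 2.86e-12). Acly (0.83), Acaca (0.62), Me1 (0.59), Elovl6 (0.43) and Acss2 (0.34) were also called, and Mlxipl was not.

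In 6 members rhythmic in both groups the peak of day fed mice was 9.73 to 12.1 h later on low salt (median 11.5 h), close to the 12 h between the phases of feeding. Srebf1 moved by 12.1 ± 0.66 h, Fasn by 11.9 ± 0.94 h, Acly by 11.7 ± 1.25 h, Scd1 by 11.3 ± 0.79 h, Scd2 by 11.2 ± 0.67 h and Acaca by 9.73 ± 1.03 h. The day fed curves were then shifted by 12 h, so that both groups were read from the start of their feeding phase. Read that way, 3 of 10 members differed (23.2% of all genes): Me1 (0.58, adjusted p = 0.00307), Elovl6 (0.38, adjusted p = 0.0178) and Acaca (0.27, adjusted p = 0.0216, lost without any of 3 libraries in turn). The member median was 0.17 against 0.23 over all genes. For Srebf1 the difference was 0.02 ± 0.08 (adjusted p = 0.972), for Scd1 0.12 (adjusted p = 0.759) and for Fasn 0.15 (adjusted p = 0.572). A p above the threshold does not show that the curves were alike.

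Core clock genes give a reference for the time of day in the same libraries. On low salt, Arntl peaked at ZT23.9 in night fed and ZT13.2 in day fed mice, Dbp, an output gene of the clock, at ZT12.3 and ZT2.69, and Per2, a repressor of the clock, at ZT17.0 and ZT6.86. Over 13 clock genes rhythmic in both groups the peak was 13.3 to 17.0 h later in day fed mice (median 14.4 h), while the 6 lipid genes lay between 9.73 and 12.1 h. The 2 ranges did not overlap. Whether the difference between them exceeds its error was not tested.

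**Figure D2:**
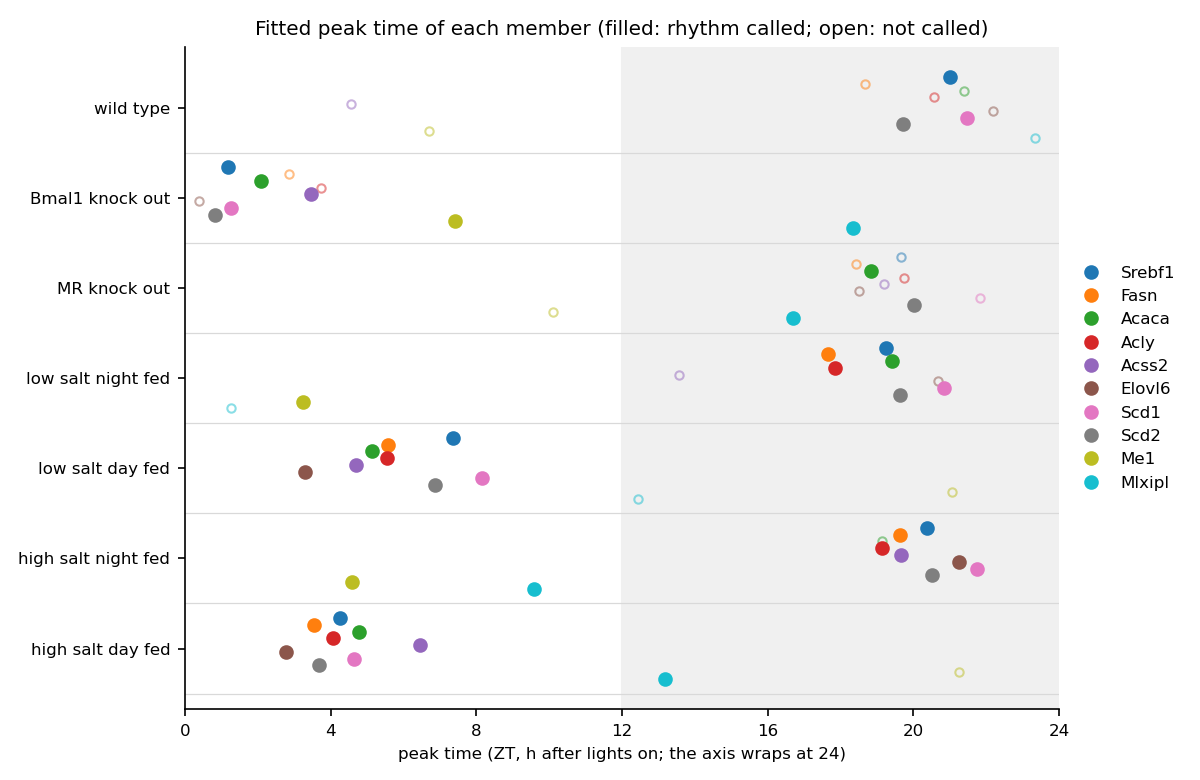
Fitted peak time (zeitgeber time, h) of each of the 10 members in the 7 conditions; filled points are rhythms called at an adjusted p under 0.05, open points are not called, and grey is the dark phase. Apart from Me1 and Mlxipl, the filled points of night fed mice lie between ZT17.7 and ZT21.8 and those of day fed mice between ZT2.8 and ZT8.2.

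On high salt, Srebf1 and Scd2 again differed between feeding times in opposite directions in the light and late in the dark. Srebf1 at ZT8 had 9.09, 8.29 and 9.68 FPKM in night fed and 23.0, 23.4 and 23.2 in day fed mice, a ratio of means of 2.57. At ZT20 it had 20.6, 21.8 and 22.0 in night fed and 12.0, 13.3 and 14.3 in day fed mice. Scd2 at ZT8 had 45.5, 37.1 and 44.3 in night fed and 171, 155 and 185 in day fed mice, a ratio of 4.02. The groups did not overlap in these comparisons, but all 3 night fed libraries at ZT8 had a low rescaling factor. Of the 6 times, Srebf1 and Scd2 did not overlap at 4 on high salt.

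Rhythms were called for 9 of 10 members in high salt, night fed mice (57% of all genes; not Acaca) and for 9 of 10 in day fed mice (31.6%; not Me1). Without the libraries of low rescaling factor, 4 remained in night fed mice (Fasn, Scd1, Scd2 and Srebf1). The share of all genes called in that fit is not given, here or for its other counts below. The desaturases had the largest amplitudes: Scd2 had 1.19 in night fed mice (1.15 without those libraries) and 1.17 in day fed mice, and Scd1 had 1.08 (1.03) and 0.85. Srebf1 had 0.61 (0.46) with a peak at ZT20.4 in night fed mice and 0.47 with a peak at ZT4.3 in day fed mice. The called members other than Me1 and Mlxipl peaked between ZT19.1 and ZT21.8 in night fed mice (7 genes) and between ZT2.8 and ZT6.5 in day fed mice (8 genes).

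The difference between day and night feeding at the same ZT was called for 9 of 10 members on high salt (32.5% of all genes; not Mlxipl), with a member median of 0.60 against 0.24 over all genes. Scd2 differed by 1.91, Scd1 by 1.51, Srebf1 by 0.93 ± 0.08 (adjusted p = 7.08e-12) and Fasn by 0.82. Me1 (0.42, adjusted p = 0.0216) was not called without day fed ZT20 replicate 3 (adjusted p = 0.0552) or night fed ZT8 replicate 3 (adjusted p = 0.0545). Without the libraries of low rescaling factor 7 were called, Me1 (0.30, adjusted p = 0.398) and Elovl6 (0.36, adjusted p = 0.0526) being lost.

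The peaks moved less than the feeding phase on high salt. Srebf1 peaked 7.86 ± 0.59 h later in day fed than in night fed mice, Fasn 7.91 h, Scd2 7.18 ± 0.43 h and Scd1 6.88 ± 0.56 h later, so that relative to the start of the feeding phase these 4 peaked 4.14, 4.09, 4.82 and 5.12 h earlier in day fed mice. Over the 8 members rhythmic in both groups the median shift was 7.52 h, Acss2 moving by 10.8 h and Mlxipl by 3.61 h. Read from the start of the feeding phase, 7 of 10 members differed (57.2% of all genes), among them Scd2 (1.39, adjusted p = 1.42e-10), Scd1 (1.21, adjusted p = 1.7e-08), Srebf1 (0.57, adjusted p = 1.76e-06) and Fasn (0.49, adjusted p = 0.0033). The share of members was near that of all genes, and the member median was 0.48 against 0.32. Acaca (0.23, adjusted p = 0.0252) was lost without any of 3 libraries in turn, and 5 of the 7 were called without the libraries of low rescaling factor (Srebf1 0.42, adjusted p = 0.0201; Mlxipl and Elovl6 lost). In the clock, Arntl peaked at ZT0.556 in night fed and ZT22.2 in day fed mice on high salt, Dbp at ZT12.3 and ZT9.72 and Per2 at ZT17.3 and ZT4.59. Counted from 0 to 24 h, the shifts of 12 clock genes ran from 6.21 to 22.3 h, with a median of 17.97 h. Those of the 8 members ran from 3.61 to 10.8 h (median 7.52 h). The ranges overlapped only through the clock genes Nr1d1 (6.21 h) and Cry1 (6.49 h), the others lying from 11.3 to 22.3 h. Whether the clock and member shifts differ beyond their error was not tested.

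Salt was compared within each feeding time. In day fed mice, the rhythms of Srebf1 (0.38 ± 0.08, adjusted p = 0.00402), Scd1 (0.69 ± 0.14, adjusted p = 0.00175) and Scd2 (0.87 ± 0.13, adjusted p = 3.34e-05) differed between high and low salt, 3 of 10 members against 11.3% of all genes. Leaving out any single library lost none of these calls. Their peaks were 3.12 ± 0.65 h, 3.53 ± 0.72 h and 3.18 ± 0.53 h earlier on high salt, and Fasn, not called, peaked 2.03 ± 0.90 h earlier. At ZT12, Scd2 had 177, 154 and 157 FPKM on low salt and 64.9, 49.1 and 43.2 on high salt. Srebf1 had 18.8, 19.4 and 19.3 against 14.1, 11.8 and 10.7 at that time. Neither gene overlapped there, the low salt libraries being higher. At ZT0 the means went the other way, with 96.6 FPKM on low and 163 on high salt for Scd2 and 13.6 and 19.9 for Srebf1.

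In night fed mice, 2 of 10 members differed in rhythm between the diets (12.3% of all genes), Scd2 (0.54 ± 0.13, adjusted p = 0.0152) and Mlxipl (0.54, adjusted p = 0.0148), with Scd1 at 0.46 (adjusted p = 0.0545). Mlxipl was not called without low salt ZT0 replicate 2 (adjusted p = 0.0677), and no member was called without the libraries of low rescaling factor (Scd2 0.47, adjusted p = 0.824; Mlxipl 0.34, adjusted p = 0.988). The Scd2 amplitude was 0.50 ± 0.13 higher on high salt in night fed mice (0.69 to 1.19) and 0.34 ± 0.13 higher in day fed mice (0.83 to 1.17), and Scd1 was 0.41 ± 0.14 and 0.18 higher. Srebf1 amplitude differed by 0.15 ± 0.08 in night fed and by -0.01 in day fed mice. Whether salt acted differently on the rhythm at the 2 feeding times was tested as an interaction. It was called for no member (6.21% of all genes; limma, 2 members at an unadjusted p under 0.05), Scd2 coming nearest (0.63, adjusted p = 0.0719; called at 0.00768 without low salt, night fed ZT0 replicate 2).

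**Figure D3:**
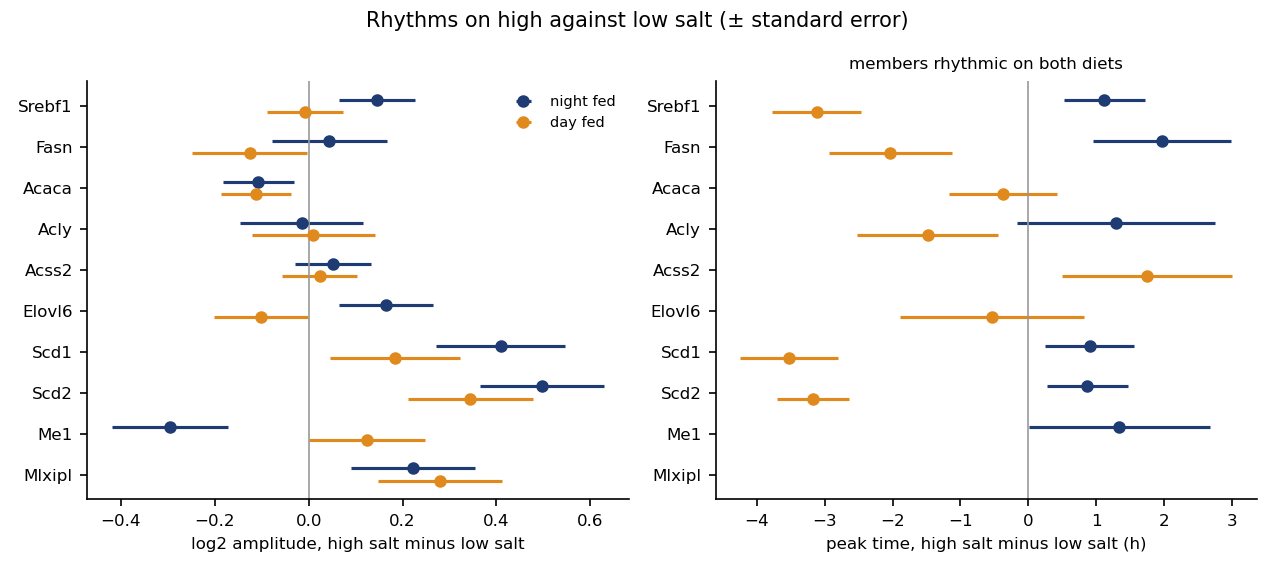
High minus low salt difference in amplitude (left, log2) and in peak time (right, h, members rhythmic on both diets) with standard errors, night fed in blue and day fed in orange. In day fed mice the peaks of Srebf1, Scd1 and Scd2 lie 3.12 to 3.53 h earlier on high salt, and the amplitude of Scd2 lies above 0 at both feeding times.

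Me1, the malic enzyme, did not share the phase of the other enzymes. In low salt, night fed mice it had 3.50, 3.75 and 4.84 FPKM at ZT4 and 1.04, 1.29 and 1.48 at ZT16, and its fitted amplitude was 0.58 with a peak at ZT3.2, in the light. In day fed mice at ZT16 it had 4.17, 3.42 and 4.8, above all night fed libraries of that time, and no Me1 rhythm was called in day fed mice on either salt. Mlxipl had no called rhythm on low salt (amplitude 0.01 in day fed mice, adjusted p = 0.991). On high salt it had amplitudes of 0.41 (peak ZT9.6, night fed; 0.22, adjusted p = 0.574, without the libraries of low rescaling factor) and 0.29 (peak ZT13.2, day fed, lost without any of 7 libraries in turn). At ZT12, Mlxipl in high salt, night fed mice had 8.34, 12.4 and 13.1 FPKM, the last 2 from libraries of low rescaling factor, and at ZT20 it had 5.47, 5.63 and 3.76.

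Level differences are log2 differences of condition means averaged over the 6 times; they cross tables whose joint normalisation was not given in the sources used here. Few member levels differed between the feeding times, and on high salt their share was not above that of all genes. These counts moved with the processing (closing section). On low salt, 1 member differed (3.33% of all genes, 1.04% higher and 2.29% lower by day): Me1 was higher by 0.65 ± 0.09 in day fed mice (adjusted p = 2.55e-06), with means of 3.86 and 2.46 FPKM. On high salt 2 differed (27.6% of all genes, 14.7% higher and 12.9% lower by day): Mlxipl was lower in day fed mice by -0.32 ± 0.09 (adjusted p = 0.00846) and Srebf1 was higher by 0.15 ± 0.06 (adjusted p = 0.044), a call lost without any of 21 libraries in turn (adjusted p up to 0.0977). Neither was called without the libraries of low rescaling factor (Mlxipl -0.21, adjusted p = 0.307; Srebf1 0.05, adjusted p = 0.741).

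In night fed mice, Scd2, Acly, Acss2, Fasn and Srebf1 were lower on high salt, and Me1 and Mlxipl were higher. Of the 10 members 5 were lower and 2 higher than on low salt (7 called against 35% of all genes, 15.4% higher and 19.6% lower), with a member median of -0.20 against -0.02 over all genes. Scd2 fell by 0.58 ± 0.09 (adjusted p = 4.08e-06), from a mean of 138 to 100.4 FPKM. Acly (-0.37, adjusted p = 0.00175), Acss2 (-0.29, adjusted p = 0.000109) and Fasn (-0.27, adjusted p = 0.0141) were lower at 6 of 6 times, as was Scd2, and Srebf1 was lower by -0.23 (adjusted p = 0.00165). Me1 rose by 0.72 ± 0.09 (adjusted p = 6.43e-09; 6 of 6 times) and Mlxipl by 0.42 (adjusted p = 0.000628). Without the libraries of low rescaling factor 5 of the 7 were called, and Srebf1 (-0.13, adjusted p = 0.279) and Mlxipl (0.30, adjusted p = 0.0887) were not. T cell markers also differed between these groups (summed FPKM 7.08 to 18.6 on low salt, 1.55 to 9.64 on high salt), and their part in the result was not tested.

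In day fed mice, 3 members differed between the diets (14.8% of all genes, 7.79% higher and 7.05% lower on high salt). Scd2 was lower on high salt by -0.34 (adjusted p = 0.0078) and Acss2 by -0.23 (adjusted p = 0.00283), and Elovl6 was higher by 0.32 (adjusted p = 0.000983). The interaction of salt and feeding time on the level was called for 3 members (19.7% of all genes, 11% positive and 8.75% negative): Srebf1 (0.22 ± 0.08, adjusted p = 0.0445), Me1 (-0.53 ± 0.12, adjusted p = 0.00193) and Mlxipl (-0.51 ± 0.13, adjusted p = 0.00541), none of which was called without the libraries of low rescaling factor (Srebf1 0.13, Me1 -0.44 and Mlxipl -0.40).

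The genotype groups ate freely. In wild type, 3 of 10 members were rhythmic (17.7% of all genes), all with a peak in the dark phase: Scd2 had an amplitude of 0.55 with a peak at ZT19.7 (adjusted p = 0.00303), Scd1 0.41 at ZT21.5 (adjusted p = 0.0253) and Srebf1 0.44 at ZT21.0 (adjusted p = 0.0378). Srebf1 had 23.3, 23.3 and 24.8 FPKM at ZT20 and 13.3, 14.3 and 8.16 at ZT8, and Scd2 had 246, 240 and 249 at ZT20 and 103, 130 and 95.9 at ZT8. The 2 times did not overlap in either gene. Without wild-type ZT8 replicate 3, Srebf1 (adjusted p = 0.145) and Scd1 (0.0637) were not called. Scd1 was also lost without ZT0 replicate 3 (0.055) or ZT20 replicate 1 (0.0527). When all libraries of 1 replicate number were left out, in 3 fits, only 0 to 1 members were called.

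In the Bmal1 knock out, 7 of 10 members were rhythmic where 56.7% of all genes were, and none when its 9 libraries of low rescaling factor were left out. That leaves 9 libraries and none at ZT12 or ZT16, and the share of all genes called in this reduced fit is not given here. Without those libraries the amplitudes were 0.69 ± 0.26 for Srebf1, 0.61 ± 0.27 for Scd1, 0.68 ± 0.25 for Scd2 and 0.25 for Mlxipl. With such errors and no library at ZT12 or ZT16, this fit cannot show whether the rhythms were kept. With all libraries, Srebf1 had an amplitude of 0.53 with a peak at ZT1.2, Scd1 0.60 at ZT1.3, Scd2 0.47 at ZT0.8, Acaca 0.27 at ZT2.1 and Acss2 0.29 at ZT3.5; the peaks of the first 3 lay after their wild-type peaks of ZT19.7 to ZT21.5. Me1 had 0.58 at ZT7.4 and Mlxipl 0.40 at ZT18.3. The rhythm differed from wild type in 4 members (31.2% of all genes), Scd2 (0.63 ± 0.17, adjusted p = 0.0161), Fasn (0.53, adjusted p = 0.0353), Scd1 (0.51, adjusted p = 0.0395) and Mlxipl (0.41, adjusted p = 0.0295). Only 1 of the 4 was left without wild-type ZT16 replicate 3, and none without the libraries of low rescaling factor, where the differences were 0.85 ± 0.28 for Scd2, 0.70 for Fasn, 0.58 for Scd1 and 0.26 for Mlxipl. In the library values, Srebf1 of the Bmal1 knock out had 14.0, 12.0 and 10.3 FPKM at ZT20, where wild type had 23.3 to 24.8, and 15.8, 18.3 and 16.4 at ZT4, where wild type had 16.5, 18 and 18.8. The groups did not overlap at ZT20 and did at ZT4.

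In the MR knock out, 3 of 10 members were rhythmic (21.7% of all genes): Scd2 with an amplitude of 0.57 and a peak at ZT20.0, Acaca with 0.31 at ZT18.8 and Mlxipl with 0.33 at ZT16.7, the last lost without any of 3 libraries in turn. No member differed in rhythm from wild type (limma, 0.835% of all genes; 1 member at an unadjusted p under 0.05). Both knock outs were compared with the same wild-type libraries.

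**Figure D4:**
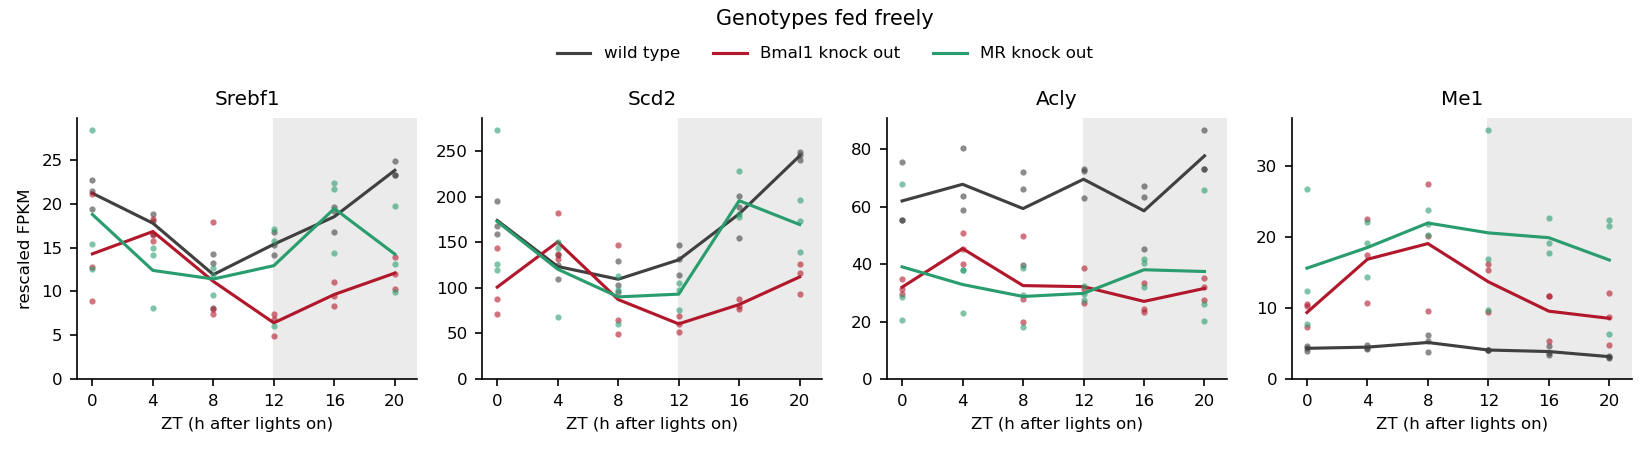
Levels of Srebf1, Scd2, Acly and Me1 (rescaled FPKM) against zeitgeber time (h) in wild type (dark grey), Bmal1 knock out (red) and MR knock out (green); points are libraries and lines join means of 3. Me1 lies above wild type in both knock outs at 6 of 6 times and Acly below it at 6 of 6.

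Of the members, Me1 and Acly had the largest level differences from wild type in both knock outs. The shares of members called were near those of all genes. They were 9 of 10 against 80.3% in the Bmal1 knock out and 7 of 10 against 66% in the MR knock out. Many of these calls moved with a property of the libraries described below. Me1 in wild type ran from 3.02 to 6.22 FPKM (median 4.10), in the Bmal1 knock out from 4.79 to 27.5 (median 11.2) and in the MR knock out from 6.41 to 35.1 (median 19.8). The MR knock out did not overlap wild type. Me1 was higher by 1.40 ± 0.16 in the Bmal1 knock out (adjusted p = 1.55e-09) and by 1.96 ± 0.16 in the MR knock out (adjusted p = 1.71e-12), at 6 of 6 times in both. Within the Bmal1 knock out, replicate 1 had the lowest Me1 level at all 6 times. Acly ran from 39.8 to 86.7 FPKM in wild type (median 66.7), from 19.9 to 50.8 (median 31.6) in the Bmal1 knock out and from 18.3 to 68.1 (median 30.8) in the MR knock out, so the groups overlapped at their edges. Acly was lower by -0.99 ± 0.13 (adjusted p = 3.29e-08) and by -1.0 ± 0.13 (adjusted p = 1.13e-07).

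In the Bmal1 knock out 9 of 10 members were called, 7 lower and 2 higher, where 80.3% of all genes were called (31.1% higher, 49.2% lower). The member median was -0.60 against -0.13 over all genes. Beside Acly, Scd2 (-0.74 ± 0.12, adjusted p = 9.67e-07), Fasn (-0.67 ± 0.12, adjusted p = 2.34e-06), Srebf1 (-0.66 ± 0.13, adjusted p = 1.39e-05), Acss2 (-0.65 ± 0.07, adjusted p = 5e-10), Scd1 (-0.56 ± 0.11, adjusted p = 3.02e-05) and Acaca (-0.24 ± 0.07, adjusted p = 0.00329) were lower. Mlxipl was higher by 0.21 ± 0.09 (adjusted p = 0.0241; 0.0555 without Bmal1 knock out ZT8 replicate 1), and Elovl6 was not called (-0.02). Without the libraries of low rescaling factor 7 members were called, and Scd1 (-0.52, adjusted p = 0.0566) and Mlxipl (0.06, adjusted p = 0.725) were not. Srebf1 had a mean ± SD of 18.1 ± 4.23 FPKM in wild type and 11.7 ± 4.62 in the Bmal1 knock out (n = 18 libraries each), with overlapping ranges.

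In the MR knock out 7 of 10 members were called, 5 lower and 2 higher, where 66% of all genes were (24.7% higher, 41.3% lower), with a member median of -0.26 against -0.08. Beside Acly and Me1, Acss2 (-0.53 ± 0.07, adjusted p = 1.39e-07), Fasn (-0.38 ± 0.12, adjusted p = 0.00498) and Srebf1 (-0.32 ± 0.13, adjusted p = 0.0262) were lower, the last lost without any of 4 MR knock out libraries in turn (adjusted p = 0.0517 to 0.0636). Mlxipl was lower by -0.28 ± 0.09 (adjusted p = 0.00501) and Elovl6 was higher by 0.34 ± 0.06 (adjusted p = 7.64e-06). Acaca (-0.11), Scd1 (-0.11) and Scd2 (-0.25) were not called. The knock outs themselves differed in 7 members (58.5% of all genes, 26.6% higher and 31.9% lower in the Bmal1 knock out). As Bmal1 minus MR knock out, Mlxipl was higher by 0.50, and Me1 (-0.56), Scd2 (-0.49), Scd1 (-0.45), Elovl6 (-0.36), Srebf1 (-0.34) and Fasn (-0.29) were lower. Without the libraries of low rescaling factor Elovl6 alone was called (-0.27, adjusted p = 0.0494), while Me1 (-0.54 ± 0.28), Scd2 (-0.54 ± 0.23) and Srebf1 (-0.34 ± 0.23) had differences of about the same size with larger errors.

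These level differences moved with a property of the libraries. A score per library of how log2 levels lean with transcript length was 0.177 ± 0.108 (SD) in wild type, -0.098 ± 0.141 in the Bmal1 knock out and 0.010 ± 0.130 in the MR knock out. With this score as a covariate, 3 members were called in the Bmal1 knock out: Me1 (1.13, adjusted p = 0.00057), Acss2 (-0.28, adjusted p = 0.0035) and Acaca, whose difference turned to 0.20 (adjusted p = 0.00665). Acly then had -0.20 (adjusted p = 0.19), Fasn -0.04 (0.82) and Srebf1 0.04 (0.81). In the MR knock out, Me1 (1.80), Acly (-0.52), Acss2 (-0.31), Elovl6 (0.45) and Mlxipl (-0.33) kept their call and direction, Acaca turned to 0.16 (adjusted p = 0.0074), and Fasn and Srebf1 were not called. For the members that lost their call, the score and the genotype cannot be told apart. The score also varied with the time of day. In low salt, day fed mice it was 0.09, 0.13 and 0.16 at ZT4 and -0.24, -0.04 and -0.24 at ZT20. In high salt, night fed mice it was -0.16, -0.07 and -0.18 at ZT8 and -0.002, 0.096 and -0.02 at ZT20. Low salt, night fed libraries overlapped between ZT4 and ZT20. The rhythm of each member with this covariate is not given here, and the counts it moved most are in the closing section.

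**Figure D5:**
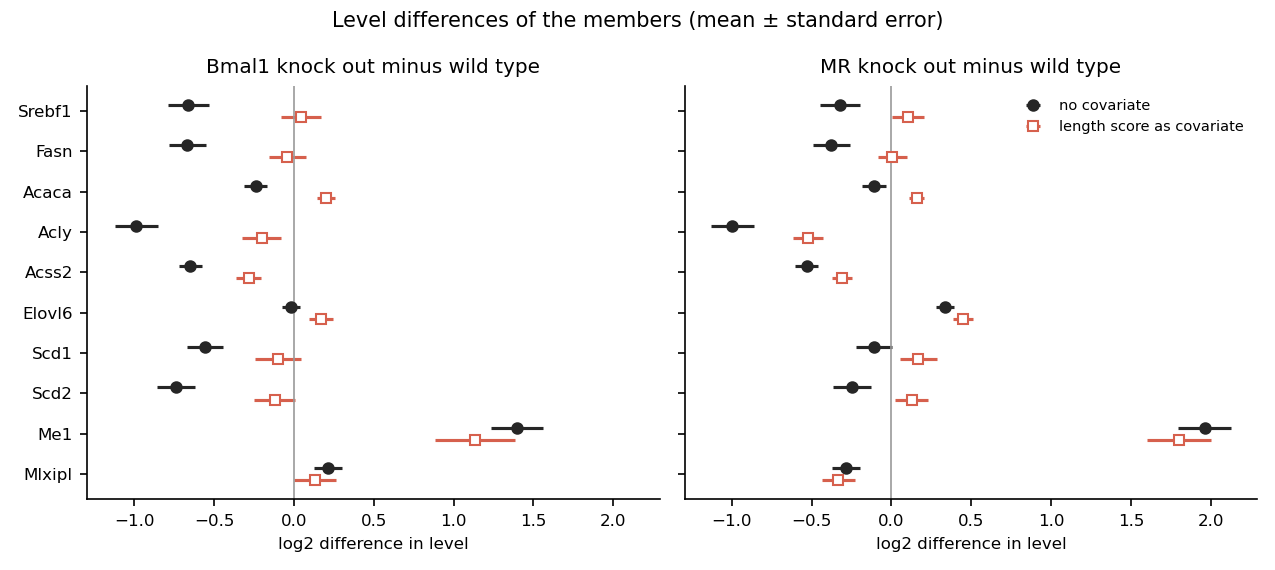
Log2 level difference from wild type (± standard error) of the 10 members in the Bmal1 and MR knock outs; black circles are the fit without a covariate and open red squares the fit with the length score. Me1 stays above 0 and Acss2 below 0 in both knock outs under both fits, while Acly of the Bmal1 knock out moves from -0.99 to -0.20.

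Set in order over the 7 conditions, the mean levels of neighbours rarely stood apart. The gap exceeded the larger of the neighbours' SDs over 18 libraries in 3 of 60 neighbouring pairs. These were Elovl6 between wild type (11.2 FPKM) and MR knock out (14.3), Me1 between low salt night fed (2.46) and low salt day fed (3.86), and Me1 between high salt day fed (4.54) and Bmal1 knock out (12.8). Srebf1 ran from 11.7 FPKM in the Bmal1 knock out through 14.9 in the MR knock out and 15.2 in high salt, night fed mice to 18.1 in wild type, no neighbours differing beyond their spread; these SDs hold the time of day as well.

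Among the other genes of the pathway, some partners of the members also differed in rhythm between the feeding times. On low salt, the rhythm difference between day and night feeding (38.6% of all genes called) was called for 7 of 11 tested genes of elongation and desaturation, 9 of 17 of acyl-CoA and triglyceride synthesis and 9 of 13 that supply citrate, malonyl-CoA or NADPH. Acsl1, which activates fatty acids to acyl-CoA, differed by 1.03 ± 0.12 (adjusted p = 4.7e-08) and peaked at ZT16.4 in night fed and ZT5.7 in day fed mice. Dgat2, which makes triglyceride, differed by 0.99 ± 0.14, Aacs, which activates acetoacetate, by 0.73 ± 0.11, and Fads1, a desaturase of long chains, by 0.63. On high salt the counts were 9 of 11, 10 of 17 and 4 of 13 (32.5% of all genes). Read from the start of the feeding phase, 1 of 11, 5 of 17 and 3 of 13 differed on low salt (23.2% of all genes). On high salt 8 of 11, 8 of 17 and 5 of 13 did (57.2%).

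Of the genes that process SREBP or carry the LXR control of Srebf1, 4 of 14 were called on low salt (38.6% of all genes) and 7 of 14 on high salt (32.5%). The same shares of all genes apply to the other lists of this paragraph. Insig1, which holds SREBP in the endoplasmic reticulum and is itself a target of it, differed by 0.79 ± 0.14 on low salt, and Srebf2, the relative that drives cholesterol synthesis, by 0.44. Of ChREBP targets outside the members 2 of 8 were called on either salt, led on low salt by Slc2a5, the fructose transporter (1.18 ± 0.10). Of LXR targets 2 of 4 were called on low salt and 3 of 4 on high salt. Genes of the fasting response were called in 6 of 12 on low salt and 5 of 12 on high salt, among them Acot1, an acyl-CoA thioesterase (1.04), and Ppara, the fasting transcription factor (0.75), both on low salt. Clock genes were called in 13 of 14 on either salt, and Dbp differed by 4.32 and Nr1d1, a clock repressor, by 3.63 on low salt.

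The level comparisons over these lists gave mixed directions. In the Bmal1 knock out (31.1% of all genes higher, 49.2% lower), genes of acyl-CoA and triglyceride synthesis were higher in 3 and lower in 10 of 17, and those of elongation and desaturation higher in 1 and lower in 8 of 11. In the MR knock out (24.7% higher, 41.3% lower), 6 were higher and 5 lower of the first list, and 6 higher and 2 lower of the 13 genes that supply citrate, malonyl-CoA or NADPH; of 12 fasting genes none was higher and 10 were lower. In high salt against low salt, night fed mice (15.4% higher, 19.6% lower), lower calls were 6 of 17 for acyl-CoA and triglyceride synthesis and 4 of 11 for elongation and desaturation, with 1 higher in each.

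To find the genes most like Srebf1, mean log2 levels at the 6 times of the 7 conditions, centred within each condition (42 points), were correlated over 10726 genes; the points share libraries and scale factors, and the values are a description. Closest to Srebf1 were Dhcr7, an enzyme of cholesterol synthesis (r = 0.92), Scd2 (0.92), Stk39, a kinase (0.88), Wfs1, a protein of the endoplasmic reticulum (0.87), and Scd1 (0.87). Fasn was at rank 13 (0.83), and Me1 (-0.35) and Mlxipl (-0.22) had weak negative correlations. Closest to Fasn were Acly (0.92), Acsl1 (0.90), Abcb10, a mitochondrial transporter (0.87), Scd2 (0.87) and Klhdc7a (0.87), with Acaca next (0.86).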

How the data were processed

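Per the submitters' processing notes, the authors used TopHat2 2.1.1 for alignment (mm10) and Cufflinks 2.2.1 for the gene values; libraries were poly(A)-selected and stranded, per the labels. The deposited tables, 1 per condition with 24883 rows, hold FPKM; the unit was read from Cufflinks and from the values. Annotation, options and joint normalisation: not given in the sources used here. Read depth is unknown; relative depth, from steps in low FPKM values, ran from 0.611 to 1.37, and FPKM sums from 158029 to 660895.

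Libraries were divided by median-of-ratios factors over 6966 genes (FPKM of at least 1 in every library), and log2(rescaled FPKM + 0.5) was analysed, so changes of low genes are understated. The 11377 rows whose mean reached 1 in any condition were tested with limma 3.58.1 in R 4.3.3 (lmFit; eBayes with trend and robust), with 1 mean per condition and time, in 54 genotype libraries (36 residual degrees of freedom) and 72 feeding libraries (48). Rhythms used a 24 h cosine and sine contrast with a 2-df F test. P-values are 2-sided, with Benjamini-Hochberg adjustment over all tested rows. The scripts were tested on simulated data; tables used pandas 2.3.3. No replicate libraries were identical (median absolute log2 difference 0.089 to 0.531). Transcript lengths covered 96.2% of tested rows. Samples were not treated as paired by replicate number, and whether the numbers pair samples within a condition was not settled (closing section). All members are named; of other lists, examples are the called genes with the smallest adjusted p, and likeness names the 5 highest correlations; an example is not reported here. The members and lists were chosen with earlier results of these data known.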

Additional observations from a re-analysis of the deposited data

Results flagged for a closer look

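The effect of feeding time on the mean level differed between the diets in 3 members (limma's interaction of salt and feeding time, adjusted p under 0.05; 19.7% of all tested genes were called). Each value is the day minus night fed difference on high salt minus that on low salt, on the log2 scale. Me1 had -0.53 ± 0.12 (adjusted p = 0.00193): the difference was 0.65 on low salt and 0.11 on high salt. Mlxipl had -0.51 ± 0.13 (adjusted p = 0.00541), from 0.19 on low salt and -0.32 on high salt. Srebf1 had 0.22 ± 0.08 (adjusted p = 0.0445), from -0.07 on low salt and 0.15 on high salt, and was not called when any of 37 of the 72 libraries was left out alone. None of the 3 was called without the 5 high salt, night fed libraries of low rescaling factor, where the values were -0.44 (Me1, adjusted p = 0.0993), -0.40 (Mlxipl, adjusted p = 0.154) and 0.13 (Srebf1, adjusted p = 0.503). Without low salt, night fed ZT0 replicate 2, Scd2 was called as well (adjusted p = 0.0291).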

How the results depend on the processing

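The number of the 10 members called is given for each alternative that moved it by over 1.5 times. The cause was not tested. The share of all genes called under each alternative is not given beside these counts, so a move is no result about the members alone. Day against night feeding at the same ZT stayed at 8 to 10 members when replicates were left out, and no alternative setting moved it by that much. With FPKM as deposited, counts were 0 for the wild-type rhythm, 9 for the rhythm difference of Bmal1 knock out and wild type, 5 for the rhythm of low salt, day fed mice, 9 and 0 for the levels of day against night on high salt and of high against low salt by day, 7 for the level interaction, 9 for the salt effect on rhythm at night, 4 for the rhythm interaction and 0 for the low salt difference aligned to feeding. With limma array weights they were 8, 7, 9, 4, 5, 7, 7, 8, 7, 7 and 5 for the rhythms of wild type and MR knock out, the rhythm differences of Bmal1 and MR knock out from wild type, the levels of day against night on low and high salt and their interaction, the salt effect on rhythm at night and by day and its interaction, and the low salt difference aligned to feeding. With the length score as a covariate they were 3 (level, Bmal1 knock out), 6 (wild-type rhythm), 1 (rhythm difference, Bmal1 knock out), 1 (level, day against night, high salt), 6 (level, salt by day), 4 (rhythm, salt at night), 3 (rhythm interaction) and 1 (aligned, low salt). Without the libraries of low rescaling factor, in a fit with cosine and sine terms in place of time means, they were 1 (level, Bmal1 against MR knock out), 4 (rhythm, high salt night fed) and 0 for the rhythm of the Bmal1 knock out and its difference from wild type, the high salt day against night level, the level interaction and the salt effect on rhythm at night. Fits of the compared conditions only gave 7 and 1 (rhythms of wild type and MR knock out), 1 (high salt level, day against night) and 0 (rhythm, salt at night), and no value for interactions. Time as a factor gave 1 (wild-type rhythm), 0 (rhythm difference, Bmal1 knock out), 3 (rhythm interaction) and 1 (aligned, low salt). A single fit of all libraries of both experiments gave 5 (MR knock out rhythm) and 1 (high salt level, day against night), no filter gave 2 (rhythm difference, Bmal1 knock out) and 1 (the same level), and cosine and sine terms over all libraries, chosen after seeing the data, gave 1 for that level and moved no other count by over 1.5 times; the move without the libraries of low rescaling factor also comes with fewer samples.

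Leaving out each library or replicate number gave these lowest and highest counts. For levels they were 8 to 9 (Bmal1 knock out), 4 to 9 (MR knock out), 4 to 9 (Bmal1 against MR), 0 to 4 (day against night, high salt), 4 to 8 and 1 to 4 (salt at night and by day) and 0 to 5 (interaction). For rhythms they were 0 to 4 (wild type), 4 to 9 (Bmal1 knock out), 1 to 4 (MR knock out), 5 to 8 and 6 to 8 (low salt, night and day fed), and 6 to 9 and 3 to 10 (high salt). For rhythm differences they were 0 to 5 and 0 to 1 (Bmal1 and MR knock out), 0 to 4 and 1 to 3 (salt at night and by day), 0 to 1 (interaction), and 0 to 3 and 6 to 8 (aligned, low and high salt). Over pairs of same-numbered libraries, the median correlation of deviations was 0.003 (genotypes, -0.69 to 0.65) and -0.005 (feeding groups, -0.70 to 0.73). A median over all pairs cannot exclude pairing within a condition. In the Bmal1 knock out, replicate 1 had the lowest Me1 level at all 6 times. With a replicate block shared by all conditions every count was as without it. Examples are 9 for the level in the Bmal1 knock out and 9 for day against night feeding on low salt.

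Some level differences changed sign. With the length score these were Acaca (0.20 in the Bmal1 and 0.16 in the MR knock out), Srebf1 (0.045 and 0.10) and Fasn (0.0045, MR knock out). With FPKM as deposited they were Acly (-0.70) and Mlxipl (-0.17) in Bmal1 against MR knock out, Mlxipl in Bmal1 knock out against wild type (-0.62), in day against night on high salt (0.10) and in high against low salt at night (-0.048), and Elovl6 in the last comparison (-0.40). Read depth is unknown, so no counting error could be given, and 3 libraries per time limit the precision of each mean.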
